A study of Homo sapiens with 9 samples.

Results

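The human genes described here carry hepatic gluconeogenesis and the insulin signal that restrains it. They were chosen by name, as the transcript clusters whose platform symbol is PC, PCK1, PCK2, FBP1, G6PC1, INSR, IRS1, IRS2, FOXO1 or PPARGC1A. All 10 were found among the 17687 genes of the table, each with 1 cluster, and none was removed by a filter. Expression was measured on 9 one-colour arrays in HepG2 cells, a line derived from a human liver tumour that keeps much of the hepatocyte programme. The 9 arrays were 3 of untreated cells, 3 of cells given 200 ng/ml recombinant SPARC and 3 of cells given 800 ng/ml, all collected at 24 h. SPARC is a secreted glycoprotein of the extracellular matrix. No label gives a vehicle for the untreated cells or says that the replicates were separate cultures, so the spread behind each p-value is that between the arrays of a group and may be technical.

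Gluconeogenesis makes glucose from lactate, amino acids and glycerol. Pyruvate carboxylase (PC) and phosphoenolpyruvate carboxykinase, which has a cytosolic form (PCK1) and a mitochondrial form (PCK2), lead pyruvate around the irreversible last step of glycolysis. Fructose-1,6-bisphosphatase (FBP1) and glucose-6-phosphatase (G6PC1) reverse the other irreversible steps. In the fed state insulin binds its receptor (INSR), whose kinase phosphorylates the docking proteins IRS1 and IRS2. The kinase AKT then drives the transcription factor FOXO1 out of the nucleus, and transcription of PCK1, G6PC1 and IRS2 falls. In fasting, glucagon acts through cAMP and the CREB factor, and the coactivator PPARGC1A works with FOXO1 on the same genes.

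Promoter sequences are shown for the members to which the results return most, with letters known from cAMP and insulin control in capitals. PC was the member lower on every treated array than on untreated replicates 1 and 3, IRS2 was the member above untreated on every 800 ng/ml array, and G6PC1 is a classic target of FOXO1. For each dose, the share of all genes that did not overlap with untreated is given with the counts below. A share for both doses together, the pattern named for PC, was not computed. Each sequence is the RefSeq window (GRCh38.p14) of 250 bases before to 50 bases after a listed start, in the direction of the gene. Capitals mark TGACG (the cAMP element half-site), TGTTT (the forkhead core), CAAAACA (the insulin response sequence, which contains a forkhead core) and TATAAA (the TATA box), on either strand. PC has 3 listed starts, at chr11:66958334-66958633, chr11:66907904-66908203 and chr11:66905985-66906284 on the minus strand. G6PC1 lies at chr17:42900549-42900848 on the plus strand and IRS2 at chr13:109786534-109786833 on the minus strand.
PC start 1: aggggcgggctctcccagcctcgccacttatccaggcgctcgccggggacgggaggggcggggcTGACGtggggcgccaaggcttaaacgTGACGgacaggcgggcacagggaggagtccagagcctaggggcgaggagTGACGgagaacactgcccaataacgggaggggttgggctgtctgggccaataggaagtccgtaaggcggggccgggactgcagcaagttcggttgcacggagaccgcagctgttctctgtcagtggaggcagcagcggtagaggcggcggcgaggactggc
PC start 2: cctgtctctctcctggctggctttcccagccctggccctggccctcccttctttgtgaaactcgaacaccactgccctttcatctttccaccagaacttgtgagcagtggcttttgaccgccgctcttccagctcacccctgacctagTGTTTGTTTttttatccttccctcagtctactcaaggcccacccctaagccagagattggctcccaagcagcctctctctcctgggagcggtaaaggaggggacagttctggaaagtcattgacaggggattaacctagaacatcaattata
PC start 3: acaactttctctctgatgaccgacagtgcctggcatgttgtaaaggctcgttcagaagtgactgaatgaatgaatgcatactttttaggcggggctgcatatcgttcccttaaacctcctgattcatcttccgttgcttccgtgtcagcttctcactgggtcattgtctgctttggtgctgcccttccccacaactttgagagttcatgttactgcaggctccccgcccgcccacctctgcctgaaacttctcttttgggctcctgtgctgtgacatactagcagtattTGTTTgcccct
G6PC1: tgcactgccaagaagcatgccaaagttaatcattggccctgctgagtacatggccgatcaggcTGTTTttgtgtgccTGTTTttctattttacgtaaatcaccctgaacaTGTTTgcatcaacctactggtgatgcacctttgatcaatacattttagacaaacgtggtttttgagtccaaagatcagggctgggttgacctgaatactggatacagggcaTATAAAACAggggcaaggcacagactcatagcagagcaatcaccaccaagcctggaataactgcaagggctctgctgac
IRS2: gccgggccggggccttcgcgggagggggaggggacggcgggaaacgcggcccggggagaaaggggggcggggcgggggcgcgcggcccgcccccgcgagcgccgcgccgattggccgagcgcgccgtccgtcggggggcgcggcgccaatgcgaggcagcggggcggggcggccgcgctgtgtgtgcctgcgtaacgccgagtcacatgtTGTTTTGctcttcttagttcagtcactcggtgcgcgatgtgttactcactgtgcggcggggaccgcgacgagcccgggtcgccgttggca

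The first PC window held 3 half-sites TGACG, at positions −186, −160 and −111 from the start, and the other PC windows held 0. In the G6PC1 window the TATA box began at position −29, overlapped by a forkhead core on the opposite strand, and 3 further cores began at −187, −173 and −140. The insulin response sequence of IRS2 began at −40 on the opposite strand and was the only one in the 12 windows of 9 members that matched the table. Of all 35116 promoter windows of the same length, 24.6% held TGACG, 44.4% held TGTTT, 4.92% held CAAAACA and 11.5% held TATAAA. Among the members' windows 4, 8, 1 and 1 of 12 held them, and the whole cAMP element TGACGTCA occurred in 0 of 12 against 1.85% of all windows. PCK1 had no window in the set, so its promoter was not searched and these counts do not cover it. A match of letters is a description and not a binding site.

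One array stood apart, and it belongs to the untreated group, against which both doses are compared. Untreated replicate 2 correlated across clusters at 0.891 to 0.920 with the other arrays, which correlated with each other at 0.979 to 0.991. Its dim genes were higher and its bright genes lower than on untreated replicates 1 and 3, with median deviations of 0.38, 0.56, −0.51 and −0.82 when genes were ranked by mean signal and divided into 4 bins, dimmest first. Blood, fibroblast and endothelial markers, 14 measured genes, averaged a log2 signal of 5.73 on this array and 4.76 to 5.09 on the other 8. The hepatocyte markers ALB, AFP and APOA1 had log2 signals of at least 12.14, 8.16 and 9.90 on every array, each lowest on untreated replicate 2. The mean log2 signal of 10 hepatocyte markers was 10.53 on untreated replicate 2 and 10.64 to 10.81 on the other 8 arrays. The blood, fibroblast and endothelial markers were dim on average and the hepatocyte markers bright. Both lists thus moved as dim and bright genes in general did on this array. Whether either moved beyond that was not tested. The differences from untreated are therefore given with all 9 arrays and without untreated replicate 2. Replicates 2 and 3 of 800 ng/ml also stood apart, in neural transcripts: the mean log2 signal of 12 neural markers was 4.29, 5.76 and 5.76 on replicates 1, 2 and 3, and 4.14 to 4.51 on the arrays of the other groups.

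**Figure D1:**
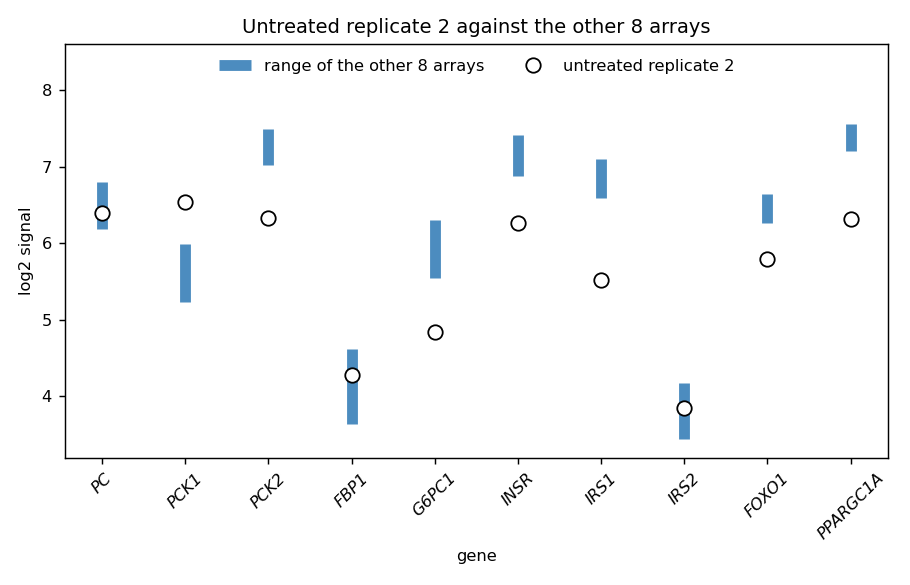
Log2 signal of each of the 10 genes on untreated replicate 2 (open circles) and the range over the other 8 arrays (bars). Untreated replicate 2 lay below the other 8 arrays for 6 genes, above them for PCK1 and within their range for PC, FBP1 and IRS2.

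Untreated replicate 2 was the lowest of all 9 arrays for PCK2, G6PC1, PPARGC1A, IRS1, INSR and FOXO1, with log2 deviations from the average of untreated replicates 1 and 3 that ran from −0.63 for FOXO1 to −1.36 for IRS1. It was the highest for PCK1, with a deviation of 1.13 from the same average, and lay within the range of the other arrays for PC, FBP1 and IRS2. Among all genes it was the lowest array for 41.7% and the highest for 32.5%, so counts of 6 and 1 of 10 are no result about the members. The members with the dimmest signals, FBP1 and IRS2, lay in the lowest of the 4 bins, and PCK2 and PPARGC1A in the highest. The table has no detection calls, so whether FBP1 and IRS2 lay above background is not known.

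No member passed the test in any comparison (limma, Benjamini-Hochberg adjusted p over all genes, threshold 0.05), nor did any other gene, so that the background share of called genes was 0%. For the 10 members the adjusted p was 0.966 to 0.997 at 200 ng/ml against untreated, 0.659 to 0.927 at 800 ng/ml against untreated and 0.999 at 800 against 200 ng/ml. At an unadjusted p under 0.05 there were 0 members in each comparison, where 1.78%, 4.17% and 2.41% of all genes lay. When untreated replicate 2 was left out, the members at an unadjusted p under 0.05 were PC and G6PC1 at 200 ng/ml against untreated, PC at 800 ng/ml against untreated, and PCK1 at 800 against 200 ng/ml. The shares of all genes were then 11.3%, 5.36% and 15.3%, so counts of 2, 1 and 1 of 10 are near the background.

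**Figure D2:**
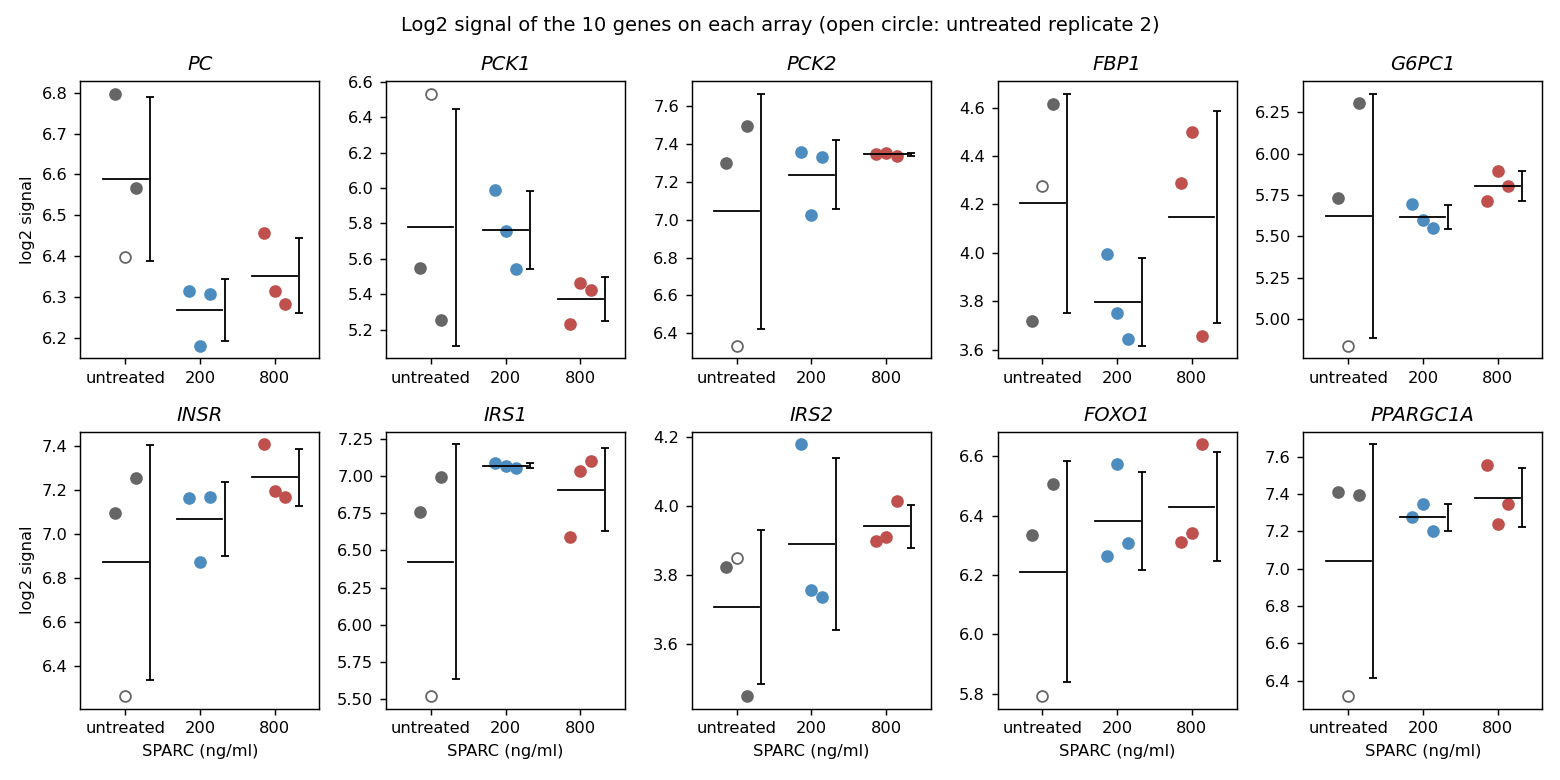
Log2 signal of each gene (vertical axis, its own scale per panel) on the 9 arrays by SPARC dose, with the group mean (line) and SD (bar, n = 3); the open circle is untreated replicate 2. The 200 ng/ml arrays of PC lie below all 3 untreated arrays, and the wide untreated bars of most other genes come from the open circle.

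PC, the entry enzyme that turns pyruvate into oxaloacetate in mitochondria, was the member whose signal was lower at both doses in every setting tried, though it passed the test only with array weights on all 9 arrays. Its log2 signal was 6.80, 6.40 and 6.57 on untreated replicates 1, 2 and 3, 6.32, 6.18 and 6.31 at 200 ng/ml and 6.46, 6.32 and 6.28 at 800 ng/ml. The 200 ng/ml arrays all lay below the untreated ones, whereas the first 800 ng/ml array lay above untreated replicate 2. The log2 difference from untreated was −0.32 ± 0.18 (SE) at 200 ng/ml, with a 95% interval of −0.72 to 0.08, and −0.24 ± 0.18 at 800 ng/ml, with −0.63 to 0.16 (limma, adjusted p = 0.966 and 0.659).

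The arrays of PC did not overlap with untreated at either dose once untreated replicate 2 was left out. With 2 arrays left for untreated cells, 31.5% of all genes at 200 ng/ml and 22.3% at 800 ng/ml did not overlap either. The differences of PC were −0.42 ± 0.12 (interval −0.69 to −0.14) and −0.33 ± 0.12 (interval −0.61 to −0.05), which are ratios of 0.750 and 0.795 (limma, adjusted p = 0.323 and 0.912). PC ranked 437 and 475 by p among 17687 genes in that fit. With array weights on all 9 arrays it passed at both doses (log2 difference −0.51 and −0.45, adjusted p = 0.0097 and 0.0255). In that fit untreated replicate 1, on which PC was highest, had a weight of 10.7 and replicate 2 one of 0.0399. With array weights on the other 8 arrays the adjusted p was 0.192 and 0.58. Between the doses PC differed by 0.08 ± 0.18, with an interval of −0.31 to 0.48, and by 0.08 ± 0.11, with −0.16 to 0.33, without untreated replicate 2.

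PCK1, the cytosolic carboxykinase and the classic fasting gene of liver, had log2 signals of 5.55, 6.53 and 5.26 in untreated cells, 5.99, 5.76 and 5.54 at 200 ng/ml and 5.23, 5.47 and 5.43 at 800 ng/ml. All 3 arrays at 800 ng/ml lay below all 3 at 200 ng/ml. That difference, which does not involve the untreated arrays, was −0.39 ± 0.29 with an interval of −1.04 to 0.26, and −0.39 ± 0.14 with −0.71 to −0.06 when untreated replicate 2 no longer entered the estimate of spread (limma, adjusted p = 0.999 and 0.270). Against untreated, PCK1 was at −0.02 ± 0.29 at 200 ng/ml and −0.40 ± 0.29 at 800 ng/ml. Without untreated replicate 2 these became 0.36 ± 0.16 and −0.03 ± 0.16 (limma, adjusted p = 0.443 and 0.999), so the zero point moved with 1 array. The difference between the doses could not move with it, as it uses no untreated array.

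PCK2, the mitochondrial carboxykinase, had 7.30, 6.34 and 7.50 in untreated cells, 7.36, 7.03 and 7.33 at 200 ng/ml and 7.35, 7.35 and 7.33 at 800 ng/ml. The groups overlapped in each comparison, with or without untreated replicate 2. The log2 difference at 800 ng/ml was 0.30 ± 0.28 with all arrays and −0.05 ± 0.14 without that array, and the second interval reached from −0.36 to 0.25, or from 0.780 to 1.19 as a ratio. At 200 ng/ml the values were 0.19 ± 0.28 and −0.16 ± 0.14.

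FBP1, which removes a phosphate from fructose-1,6-bisphosphate, had 3.72, 4.28 and 4.62 in untreated cells, 4.0, 3.75 and 3.64 at 200 ng/ml and 4.29, 4.50 and 3.66 at 800 ng/ml. The groups overlapped in each comparison. Its spread within groups, an SD of 0.414 over the 8 arrays, was wider than that of 97.8% of genes (rank by SD, median of all genes 0.176). The differences from untreated were −0.41 ± 0.28 at 200 ng/ml and −0.06 ± 0.28 at 800 ng/ml with all arrays, and −0.37 ± 0.30 and −0.02 ± 0.30 without untreated replicate 2.

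G6PC1, the last enzyme of glucose output, had 5.73, 4.84 and 6.30 in untreated cells, 5.70, 5.60 and 5.55 at 200 ng/ml and 5.71, 5.90 and 5.80 at 800 ng/ml. The 3 untreated arrays spanned the treated ones, with group SDs of 0.738 untreated, 0.0729 at 200 ng/ml and 0.0927 at 800 ng/ml. Every 800 ng/ml array lay above every 200 ng/ml array, with a difference of 0.19 ± 0.30 and an interval of −0.48 to 0.86, and 0.19 ± 0.15 with −0.15 to 0.52 without untreated replicate 2. Against untreated the difference was −0.01 ± 0.30 at 200 ng/ml and 0.18 ± 0.30 at 800 ng/ml. Without untreated replicate 2 it was −0.40 ± 0.17 (interval −0.78 to −0.02) and −0.21 ± 0.17 (limma, adjusted p = 0.418 and 0.978). Without untreated replicate 3 instead it was 0.33 and 0.52, so its direction was set by which untreated array was kept.

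Of the insulin receptor arm, INSR had log2 signals of 7.10, 6.26 and 7.26 in untreated cells, 7.17, 6.87 and 7.17 at 200 ng/ml and 7.41, 7.20 and 7.17 at 800 ng/ml. The doses and untreated cells overlapped. At 800 ng/ml the difference from untreated was 0.39 ± 0.26 with all arrays and 0.08 ± 0.14 without untreated replicate 2, with intervals of −0.18 to 0.95 and −0.24 to 0.40. At 200 ng/ml it was 0.20 ± 0.26 and −0.11 ± 0.14.

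IRS1, the docking protein that carries the receptor's signal to phosphoinositide 3-kinase, had 6.76, 5.52 and 6.99 in untreated cells, 7.09, 7.07 and 7.06 at 200 ng/ml and 6.59, 7.04 and 7.10 at 800 ng/ml. All 200 ng/ml arrays lay above all untreated arrays, and they also did so without untreated replicate 2. The difference of 0.65 ± 0.33 at 200 ng/ml was the largest of the 10 members with all arrays, at a ratio of 1.57 (interval 0.947 to 2.59). It shrank to 0.20 ± 0.16 without that array (limma, adjusted p = 0.966 and 0.671). At 800 ng/ml the values were 0.49 ± 0.33 and 0.03 ± 0.16. Replicate 1 of 800 ng/ml was 0.48 below the mean of replicates 2 and 3, the arrays with high neural transcripts. Their part in this difference was not tested. No member had both of these arrays above, or both below, the other 7. The share of all genes with such a pattern was not computed, so this is no result about the members.

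IRS2, the docking protein that FOXO1 itself raises in fasting liver, had 3.82, 3.85 and 3.45 in untreated cells, 4.18, 3.76 and 3.74 at 200 ng/ml and 3.90, 3.91 and 4.01 at 800 ng/ml. The 800 ng/ml arrays all lay above the untreated ones, by a small margin. The difference was 0.23 ± 0.20 with an interval of −0.21 to 0.67, and 0.31 ± 0.17 with −0.08 to 0.69 without untreated replicate 2 (limma, adjusted p = 0.659 and 0.971). At 200 ng/ml it was 0.18 ± 0.20 and 0.26 ± 0.17. IRS1 kept a positive difference from untreated at both doses in all settings tried, and IRS2 in all settings that kept it among the tested genes.

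FOXO1 had 6.34, 5.79 and 6.51 in untreated cells, 6.27, 6.57 and 6.31 at 200 ng/ml and 6.31, 6.34 and 6.64 at 800 ng/ml. Its differences from untreated of 0.17 ± 0.22 and 0.22 ± 0.22 at the 2 doses became −0.04 ± 0.15 and 0.01 ± 0.15 without untreated replicate 2. In that fit the intervals at 200 and 800 ng/ml were −0.38 to 0.30 and −0.33 to 0.35. The transcript level does not report on the nuclear exit of the FOXO1 protein, through which insulin acts.

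PPARGC1A, the coactivator induced by glucagon, had 7.41, 6.32 and 7.39 in untreated cells, 7.28, 7.34 and 7.20 at 200 ng/ml and 7.55, 7.24 and 7.35 at 800 ng/ml. The differences were 0.23 ± 0.28 and 0.34 ± 0.28 with all arrays, and −0.13 ± 0.13 and −0.02 ± 0.13 without untreated replicate 2. The last had an interval of −0.31 to 0.26, a ratio of 0.809 to 1.20. All 200 ng/ml arrays lay below untreated replicates 1 and 3.

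**Figure D3:**
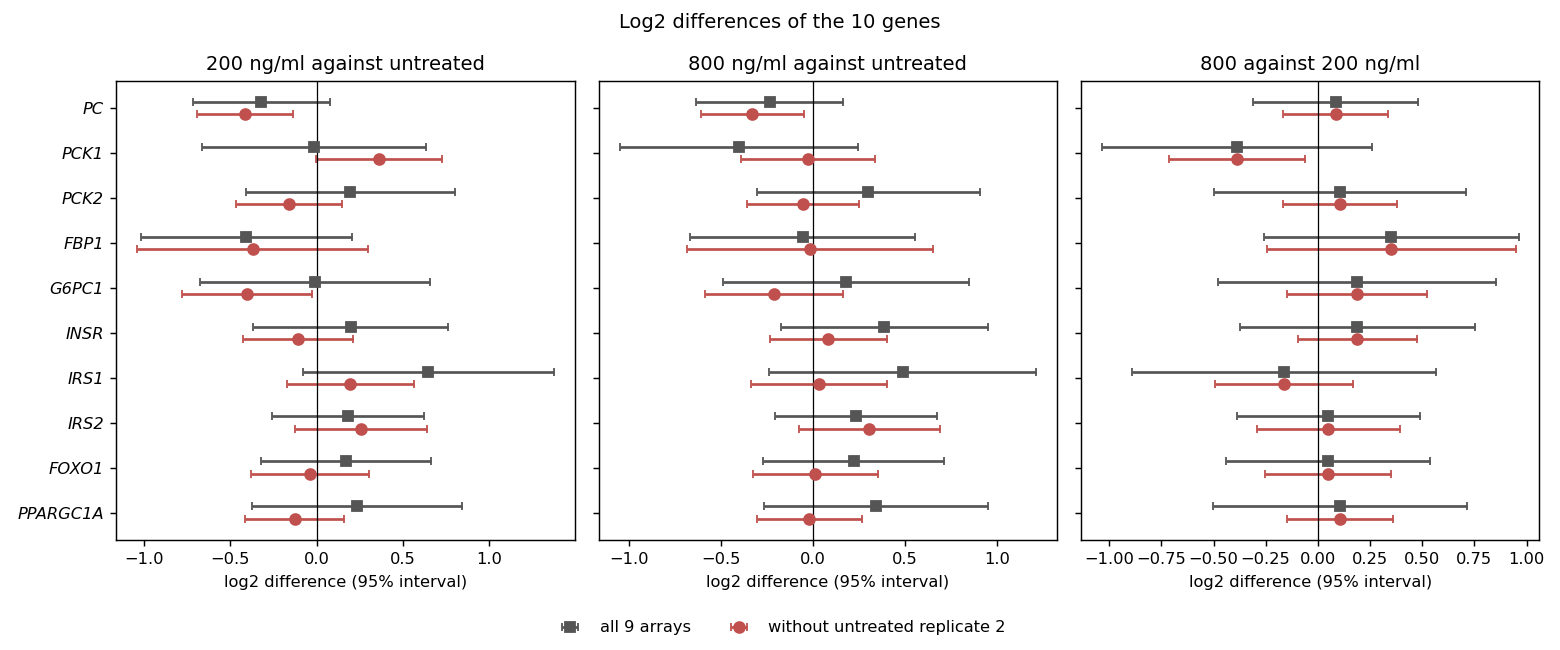
Log2 difference with its 95% interval for each gene in the 3 comparisons, with all 9 arrays (squares) and without untreated replicate 2 (circles). For INSR, PCK2, PPARGC1A and FOXO1 the value against untreated moves toward or past 0 when that array is left out. PC and FBP1 stay below 0, and IRS1 and IRS2 above 0, against untreated at both doses. IRS1 nevertheless moves toward 0 without that array. At 800 ng/ml FBP1 is then at −0.02 and IRS1 at 0.03.

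Counted over the members, 6 of 10 were higher at 200 ng/ml than untreated, with a median log2 difference of 0.18, and 7 of 10 at 800 ng/ml, with a median of 0.23. Over all genes 54.1% and 54.6% were higher, with medians of 0.03 and 0.04. The members higher were 3 and 4 of 10 without untreated replicate 2, with medians of −0.12 and −0.02, against 47.2% and 48.2% of all genes. The arrays of 2 groups did not overlap for IRS1 (above) and PC (below) at 200 ng/ml, for IRS2 (above) at 800 ng/ml, and for G6PC1 (above) and PCK1 (below) between the doses. That is 2, 1 and 2 of 10, against 6.98%, 11.2% and 21.9% of all genes. Without untreated replicate 2, where 2 arrays stand for the untreated cells, the counts at 200 and 800 ng/ml were 4 and 2, against 31.5% and 22.3% of all genes. The comparisons with untreated cells share the untreated arrays, so the counts of the doses are not independent.

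Across the 8 arrays other than untreated replicate 2, the members did not vary as 1 group. Of their 45 pairs 23 correlated positively, with a median Pearson r of 0.03. The highest r was 0.80 for PCK2 and INSR and the lowest was −0.82 for PPARGC1A and IRS1, which with all 9 arrays turned to 0.82. The genes most like single members over these 8 arrays were B4GALT2 for PCK2 (r = 0.984, and 0.995 over 9 arrays), CPM for PCK1 (0.974 and 0.832), NAP1L3 for PC (0.971 and 0.950) and CCDC181 for G6PC1 (0.981 and 0.703). KRT75 was most like FBP1 (0.959 and 0.893), LAP3 most like INSR (0.981 and 0.995) and ATG4B most like IRS1 (0.974 and 0.994). For IRS2, FOXO1 and PPARGC1A they were NRN1 (0.989 and 0.375), KIF3A (0.972 and 0.971) and KBTBD4 (0.964 and 0.329). Each is the best of all genes on the same few arrays, so these values describe the arrays only.

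The other genes of the pathway were counted in 6 lists. No gene of any list passed the test in any comparison with all 9 arrays or without untreated replicate 2. Neither did any other gene in either fit, so this is no result about the lists. Beside the counts that follow, 54.1% and 54.6% of all genes were higher at 200 and 800 ng/ml than untreated with all arrays. The shares were 47.2% and 48.2% without untreated replicate 2, on which bright genes in general were lower. Of 23 measured gluconeogenic enzymes and carriers, 17 were higher at 200 ng/ml and 20 at 800 ng/ml than untreated (medians 0.14 and 0.21). Without untreated replicate 2 the counts were 9 and 11 (medians −0.05 and −0.01). LDHB, a lactate dehydrogenase subunit, had a log2 difference of 1.06 ± 0.39 at 800 ng/ml with all arrays and 1.12 ± 0.45 without untreated replicate 2, with signals of 4.24, 5.37 and 6.10 in its replicates 1, 2 and 3. It was thus high on the arrays with high neural transcripts, whose part was not tested. MDH1, the cytosolic malate dehydrogenase, had 0.52 ± 0.25 and MPC2, a subunit of the mitochondrial pyruvate carrier, 0.48 ± 0.24. They had 0.27 ± 0.18 and 0.21 ± 0.13 without untreated replicate 2.

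Of 18 measured transcriptional regulators of gluconeogenesis, 12 and 13 were higher at 200 and 800 ng/ml than untreated (medians 0.19 and 0.17), and 8 and 10 without untreated replicate 2 (medians −0.02 and 0.04). FOXO6, a forkhead relative of FOXO1 known to promote gluconeogenesis in mouse liver, had signals of 5.50, 6.28 and 5.26 in untreated cells, 4.96, 5.23 and 5.24 at 200 ng/ml and 4.62, 4.62 and 4.74 at 800 ng/ml. No 2 of these groups overlapped. Of all genes, 6.98% and 11.2% did not overlap with untreated at 200 and 800 ng/ml, and 21.9% did not between the doses. The difference of FOXO6 at 800 ng/ml was −1.02 ± 0.25, and −0.72 ± 0.14 without untreated replicate 2 (limma, adjusted p = 0.659 and 0.861). FOXO6 was named for its small p in this comparison, the smallest of the list, so its separation there is not independent of the choice. Its separations in the other comparisons, which share the untreated or the 800 ng/ml arrays, are not independent either. PPARGC1B, a relative of PPARGC1A, had −0.65 ± 0.47 and 0.05 ± 0.21 in these fits, and KAT2A, an acetyltransferase that acts on PPARGC1A, had 0.36 ± 0.23 and 0.09 ± 0.11.

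Of 22 measured genes of the insulin cascade, 20 and 18 were higher at 200 and 800 ng/ml than untreated (medians 0.20 and 0.31), and 7 and 12 without untreated replicate 2 (medians −0.01 and 0.01). On untreated replicate 2 the mean log2 signal of this list was 6.54, against 7.30 to 7.37 on the other 8 arrays. PIK3R1 and PIK3CB, a regulatory and a catalytic subunit of phosphoinositide 3-kinase, had 0.73 ± 0.42 and 0.67 ± 0.34 at 800 ng/ml with all arrays, and 0.10 ± 0.16 and 0.20 ± 0.15 without that array. SOS1, which passes the receptor's signal to RAS, had 0.42 ± 0.23 and 0.18 ± 0.13.

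Of 16 measured brakes on the insulin signal, 13 were higher at each dose than untreated (medians 0.21 and 0.26), and 7 and 9 without untreated replicate 2 (medians −0.02 and 0.03). INPPL1, a phosphatase that removes the lipid signal made by phosphoinositide 3-kinase, had signals of 5.48, 5.54 and 5.79 in untreated cells, 6.31, 6.24 and 6.12 at 200 ng/ml and 6.01, 6.06 and 6.05 at 800 ng/ml. No 2 of these groups overlapped, and the 200 ng/ml arrays were the highest. Of all genes, 6.98% and 11.2% did not overlap with untreated at 200 and 800 ng/ml, and 21.9% did not between the doses. INPPL1 was named for its small p at 800 ng/ml against untreated, so its separation there is not independent of the choice. The other comparisons share the untreated or the 800 ng/ml arrays with that one, so its separations in them are not independent either. The difference at 200 ng/ml was 0.62 ± 0.18 with all arrays and 0.59 ± 0.13 without untreated replicate 2 (limma, adjusted p = 0.966 and 0.309), and at 800 ng/ml 0.44 ± 0.18 and 0.40 ± 0.13. PHLPP2, a phosphatase of AKT, had 0.57 ± 0.32 and 0.13 ± 0.14 at 800 ng/ml, and PTPRF, a receptor phosphatase, had 0.44 ± 0.27 and 0.08 ± 0.11.

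Of 14 measured liver genes known to answer insulin through FOXO1 or SREBP-1c, 10 and 13 were higher at 200 and 800 ng/ml than untreated (medians 0.21 and 0.21), and 8 and 4 without untreated replicate 2 (medians 0.02 and −0.01). ACACA, which commits carbon to fatty acid synthesis, had 0.67 ± 0.33 at 800 ng/ml with all arrays and 0.20 ± 0.11 without that array. SREBF1, which encodes the insulin-induced factor SREBP-1c, had 0.27 ± 0.21 and 0.07 ± 0.12, and BCL6 had 0.38 ± 0.26 and 0.05 ± 0.12.

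Of 19 measured genes of the glucagon, cAMP and AMPK branch, 15 were higher at each dose than untreated (medians 0.26 and 0.38), and 8 at each dose without untreated replicate 2 (medians −0.05 and −0.01). GCGR, the glucagon receptor, had −0.51 ± 0.25 at 800 ng/ml with all arrays and −0.29 ± 0.19 without that array. PRKACB and PRKAR1A, a catalytic and a regulatory subunit of the cAMP-dependent kinase, had 0.56 ± 0.27 and 0.52 ± 0.25 with all arrays, and 0.27 ± 0.18 and 0.20 ± 0.11 without it. PRKACB was high on 800 ng/ml replicates 2 and 3, with 5.91 and 5.65 against 5.29 on replicate 1.

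**Figure D4:**
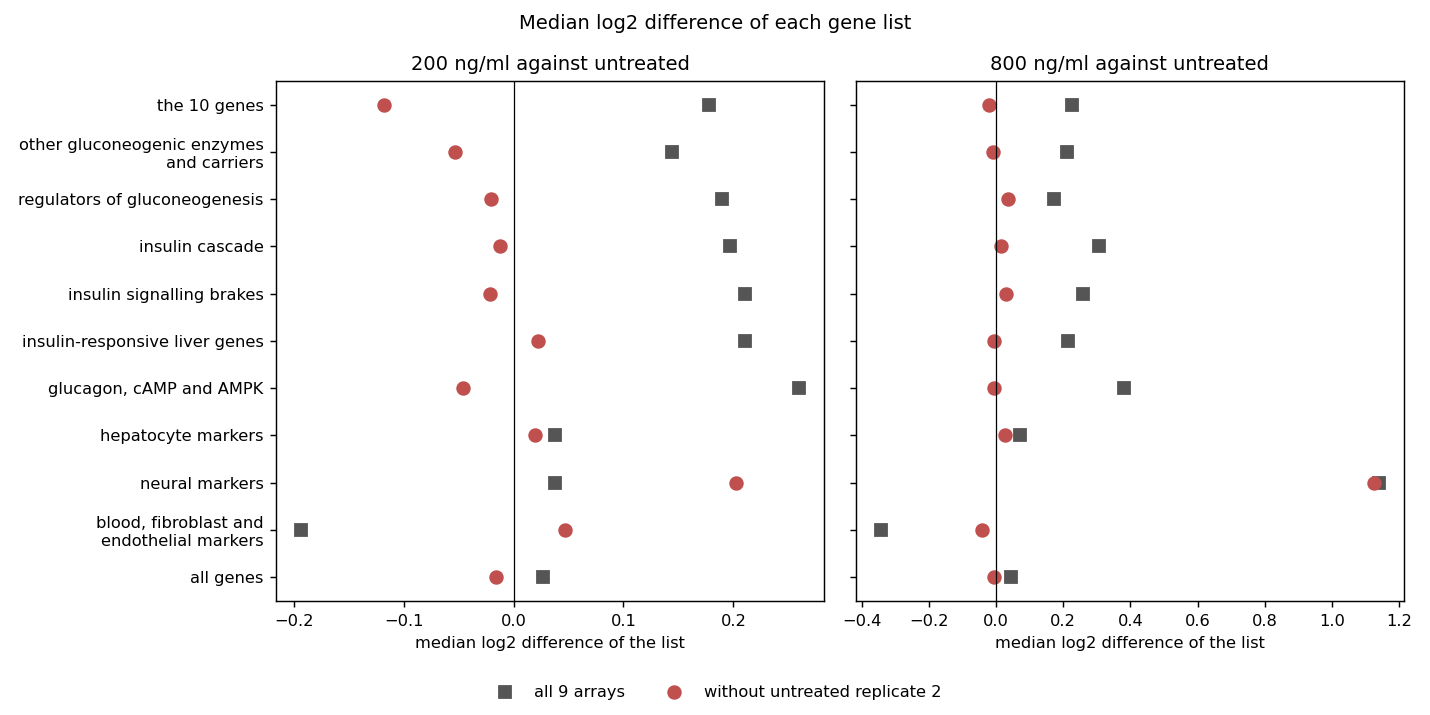
Median log2 difference from untreated (horizontal axis, a separate scale for each dose) of the 10 genes, 6 pathway lists, 3 marker lists and all genes, with all 9 arrays (squares) and without untreated replicate 2 (circles). All 6 pathway medians are at 0.14 or more with all arrays and lie between −0.05 and 0.04 without that array.

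Marker lists describe the arrays here. They were chosen with earlier results of these data known, so their counts are not independent of those results. Of 10 hepatocyte markers, 8 were higher at each dose than untreated (medians 0.04 and 0.07), and 5 and 8 without untreated replicate 2. ALB had signals of 12.30, 12.14 and 12.25 in untreated cells, 12.28, 12.36 and 12.32 at 200 ng/ml and 12.46, 12.34 and 12.35 at 800 ng/ml. Of 12 neural markers, 8 had both 800 ng/ml replicates 2 and 3 above the other 7 arrays, whereas AQP4, MBP, SNAP25 and SYT1 did not. The share of all genes with this pattern was not computed. GFAP, an astrocyte filament protein, had 4.54, 7.88 and 7.75 on the 800 ng/ml arrays and at most 5.57 elsewhere. Of 14 blood, fibroblast and endothelial markers, 13 were lower at each dose than untreated with all arrays, and 4 and 9 without untreated replicate 2. The labels name only HepG2 cells, and the source of the neural, blood, fibroblast and endothelial signals was not tested. In bulk RNA, a change in the mix of cells and a change in RNA per cell cannot be told apart.

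Precision depended on the number of arrays and on whether untreated replicate 2 was among them. With all 9 arrays the 95% interval extended 1.45-fold to each side of the estimate for the median gene. The reach without untreated replicate 2 was 1.28-fold against untreated and 1.24-fold between the doses. These intervals are not adjusted for the number of genes tested, so one that leaves out 0 is not a call.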

How the data were processed

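Total RNA of 9 HepG2 samples was hybridised to 1-colour arrays, per the labels. The authors deposited 1 log2 signal per transcript cluster and array. No label states the scale, and log2 was read from the values' range. The submitters' processing notes name R 3.0. For normalization, background correction and genome build, nothing was stated in the labels. Of 21448 clusters, 17709 had 1 gene symbol, 0 had several and 3739 had none. Where a gene had several clusters, the one with the highest mean was kept, which left 17687 genes. No array duplicated another (0 identical pairs).

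A single limma model (version 3.58.1, R 4.3.3, lmFit and eBayes) held all 3 groups and used the values as deposited, with Benjamini-Hochberg adjustment over all genes and a threshold of 0.05. Intervals are 95% intervals of the moderated fit. The members and the gene lists were chosen with earlier results of these data known. Beyond the members, the rule named the 3 genes of each list with the smallest p at 800 ng/ml against untreated, the gene most correlated with each member, and ALB, AFP, APOA1, GFAP and NTRK2 as checks. The lists held 175 genes, of which 158 were measured. The fit was tested on simulated data with 200 changed genes.

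Samples with the same replicate number did not deviate together in every pair (r from −0.25 to 0.11), so the numbers were not treated as pairs. Alternatives were quantile normalization, median centring, leaving out the dimmest 25% of genes, the mean of all clusters, a trended robust prior, a replicate block, array weights and leaving out each array. Array weights without untreated replicate 2 were added after seeing the data.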

Additional observations from a re-analysis of the deposited data

How the results depend on the processing

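With all 9 arrays 0 genes passed in each comparison, also with quantile normalization, median centring, the dimmest 25% of genes left out, the mean of all clusters, a trended robust prior and the replicate block. In the block fit the members had the same differences as without it, and the smallest adjusted p of a member was 0.679. In 5 of 18 comparisons of an array with another group, the array correlated best with its own replicate number. Array weights called 1971, 732 and 6 genes at 200 ng/ml against untreated, at 800 ng/ml against untreated and at 800 against 200 ng/ml, with PC among the first and the second, and 0 genes in each once untreated replicate 2 was left out. Leaving out 1 array gave 0 genes at 200 ng/ml, 0 to 12 at 800 ng/ml against untreated and 0 to 15 between the doses, with 0 members among them. The counts of 12 and 15 came without 800 ng/ml replicate 1.

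Directions of members turned as follows, and the cause was not tested. With quantile normalization G6PC1 at 200 ng/ml was 0.12 and FBP1 at 800 ng/ml 0.082. With array weights PCK1, PCK2, PPARGC1A and INSR at 200 ng/ml were 0.14, −0.069, −0.15 and −0.027, and FBP1 and PPARGC1A at 800 ng/ml 0.34 and −0.049. With array weights and without untreated replicate 2, PCK1, PCK2, PPARGC1A, INSR and FOXO1 at 200 ng/ml were 0.27, −0.16, −0.15, −0.10 and −0.038, and PCK2, G6PC1 and PPARGC1A at 800 ng/ml −0.055, −0.20 and −0.048. Leaving out each array in turn also turned members, within these ranges. At 200 ng/ml against untreated they were PCK1 −0.28 to 0.36, PCK2 −0.16 to 0.42, G6PC1 −0.40 to 0.33, PPARGC1A −0.13 to 0.42, INSR −0.11 to 0.39 and FOXO1 −0.038 to 0.32. At 800 ng/ml against untreated they were PCK2 −0.054 to 0.53, G6PC1 −0.21 to 0.52, FBP1 −0.30 to 0.19 and PPARGC1A −0.021 to 0.52. Between the doses they were PCK2 −0.00036 to 0.17, IRS2 −0.027 to 0.19 and FOXO1 −0.057 to 0.14. Of the 19 turned values, 8 came without untreated replicate 2. IRS2 and FBP1 fell among the dimmest 25% of genes and have no value in that setting.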
